A study of Mus musculus with 35 samples.

Results

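Colons of formerly axenic C57BL/6N mice that had been colonised with the faecal flora of Reg3a-transgenic mice were set against colons of the conventional Reg3a-transgenic C57BL/6N mice themselves, both under dextran sodium sulfate (DSS). The members are 10 of the 35 arrays of the series, 5 from transgenic-flora recipients and 5 from transgenic mice, taken by their titles. Both groups drank 3% DSS for 5 days and then water, and colons were taken at day 12. In the recipients DSS began 3 weeks after faecal microbiota transplantation. All groups are C57BL/6N by their labels. The labels' treatment field reads the same in both groups, as DSS after transfer of transgenic flora, so the titles and the axenic tag, carried by the recipients, separate them. The sources used here give neither the host genotype of the recipients nor the species, promoter or line of the transgene, nor age, sex, cage or processing batch. Axenic rearing and the transplantation therefore differ together between these groups, and the transgene and any batch may differ with them. These cannot be told apart. Sex composition, read from Xist below, differs as well. A second pair, 5 wild-type-flora axenic recipients and 5 wild-type mice under DSS, shares no array with the transgenic pair and stands beside it where a difference between the pairs was tested. The p-values set each difference against the spread between these mice. The labels do not say whether mice shared a cage or litter. If they did, the mice are not independent and the p-values may be too small.

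DSS is a detergent-like polymer that damages the colonic epithelium, lets luminal bacteria reach the tissue and draws in neutrophils, after which the epithelium regrows. Reg3a is a C-type lectin of the Reg3 family, whose members are secreted in the gut and act against bacteria. Axenic mice are raised without microbes, and their immune system and mucosa mature further once a flora is introduced.

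Affymetrix Mouse Gene 1.0 ST arrays gave each gene's expression as log2 RMA signal, a level on a log2 scale, so a difference of 1 is a 2-fold difference. Array medians lay between 6.65 and 6.95, and the spread of values within an array, as an SD, between 1.64 and 2.03. Among the 10 arrays, recipient AXDSSTG922 had the lowest such SD (1.67) and transgenic mouse DSSTG49 the highest (2.02). Xist, the RNA of the inactive X chromosome, was at 11.15 and 11.88 in transgenic mice DSSTG46 and DSSTG44 and at most 5.05 in the 5 recipients and the other 3 transgenic mice, so the groups differ in sex composition. Mice are named by their arrays, and values are listed in the order AXDSSTG922, AXDSSTG749, AXDSSTG713, AXDSSTG632 and AXDSSTG446 for recipients and DSSTG49, DSSTG48, DSSTG47, DSSTG46 and DSSTG44 for transgenic mice.

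Of 19908 genes tested with limma, 1350 (6.78%) differed between transgenic-flora recipients and transgenic mice at an adjusted p below 0.05. Of these, 204 (1.02% of all genes) were higher and 1146 (5.76%) lower in recipients. The 204 became 51 without DSSTG48, 66 without DSSTG46, 78 without AXDSSTG632, 88 without AXDSSTG713, 91 without DSSTG44 and 108 without DSSTG47, and 327 without DSSTG49, 385 without AXDSSTG749 and 502 without AXDSSTG922. The 1146 became 569 without DSSTG48, 644 without AXDSSTG632 and 733 without AXDSSTG713. At least 2-fold differences numbered 70 higher (0.352%) and 156 lower (0.784%). The 5 recipients lay wholly above the 5 transgenic mice for 285 genes (1.43%) and wholly below for 1247 (6.26%). The median difference over all genes was 0.01. The balance of the calls moved with the processing and with the mice kept. In the main test 15.1% were higher, after quantile normalization 32.2% and with the within-array SD as a covariate 41.3%. Without recipient AXDSSTG922 and transgenic mouse DSSTG49 the share was 43.9%. Leaving out the mice with high Xist reduced the calls to 455, of which 2.64% were higher.

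Genes of neutrophils and of the acute phase response were among the largest rises in recipients. Of 20 neutrophil genes measured 7 were called higher and 1 lower, with a median difference of 1.53. Of 19 acute phase and complement genes 8 were higher and 0 lower, with a median of 0.81. Over all genes 1.02% were called higher and 5.76% lower. Mean neutrophil list levels under DSS were 8.42 in recipients and 6.79 in transgenic mice. They were 8.02 in wild-type-flora recipients, 7.49 in wild-type mice and 6.67 in axenic controls. Mean acute phase list levels were 8.79, 7.59, 8.64, 8.33 and 7.80 in the same order. Saa3, an acute phase serum amyloid A protein, was at 10.99, 12.13, 12.54, 12.45 and 11.86 in recipients, against 10.75, 7.72, 6.59, 7.08 and 6.80 in transgenic mice. Every recipient lay above every transgenic mouse, with transgenic mouse DSSTG49 close to the lowest recipient. Saa3 was 4.21 ± 0.68 (SE) higher in recipients, an 18.5-fold difference (adjusted p = 0.00575). Lcn2, the iron-siderophore binding protein lipocalin-2, was at 11.43, 12.55, 12.93, 12.75 and 11.90 in recipients, against 11.35, 8.18, 7.25, 7.83 and 7.41 in transgenic mice. Its difference was 3.91 ± 0.68 (SE, adjusted p = 0.00700), again without overlap and with mouse DSSTG49 at the border.

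Neutrophil granule and calprotectin genes were also higher. Mmp8, the neutrophil collagenase, was at 7.47, 9.70, 11.46, 9.52 and 8.64 in recipients, against 7.14, 4.83, 5.09, 4.90 and 4.84 in transgenic mice, and rose by 4.0 ± 0.67 (SE, adjusted p = 0.00646). Apart from DSSTG49, these transgenic mice lay near the level of Xist in mice where it was low, and the files hold no detection call, so this difference may understate the change. S100a8, a subunit of calprotectin, was at 8.98, 10.31, 11.79, 10.67 and 10.10 in recipients, against 9.57, 6.07, 5.43, 5.57 and 5.44 in transgenic mice. Recipient AXDSSTG922 lay below transgenic mouse DSSTG49, so these groups overlapped, and the difference was 3.95 ± 0.77 (SE, adjusted p = 0.0120). S100a9, the partner subunit (3.11), Retnlg, a resistin-like protein of myeloid cells (3.70), and Il1r2, a decoy receptor for interleukin-1 (2.13), were also called with overlapping groups. Ngp, a neutrophil granule protein, rose by 2.92 and Ltf, lactoferrin, by 0.96, both without overlap, and the same limit applies to Ngp. Il1r2 and Ltf, like Cyp3a13, Cldn1 and Per1 below, were singled out after their values were seen. Cd177, a neutrophil surface protein, went the other way, at 9.78 to 10.58 in recipients and 10.83 to 11.54 in transgenic mice, and fell by 1.03.

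**Figure D1:**
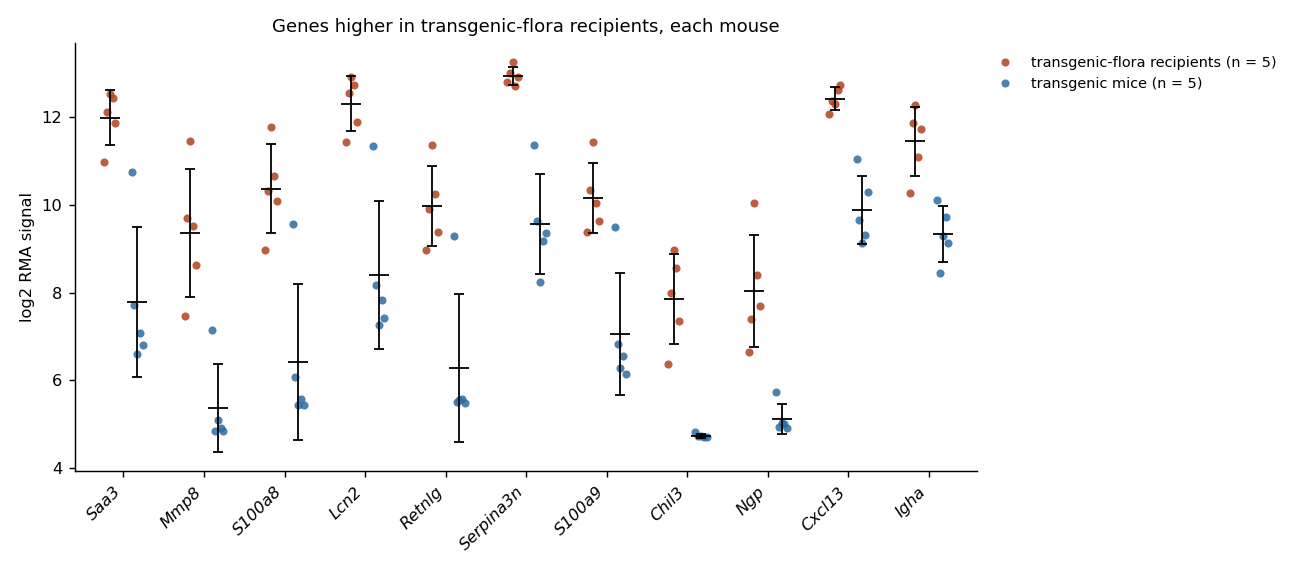
Log2 RMA signal (vertical axis) of 11 genes called higher, with 1 point per mouse, transgenic-flora recipients left and transgenic mice right of each gene; bars are the mean and SD (n = 5 each). Transgenic mouse DSSTG49 is the high point of its group for S100a8, at 9.57 against 5.43 to 6.07 in the other 4.

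Mouse DSSTG49 carried much of the spread in the transgenic group. The mean level of the 20 neutrophil genes was 7.51 to 9.49 in recipients, against 8.09 in transgenic mouse DSSTG49 and 6.39 to 6.57 in the other 4 transgenic mice. Without mouse DSSTG49, 13 of the 20 neutrophil genes were called higher and 1 lower. Without both mouse DSSTG49 and recipient AXDSSTG922 the counts were 14 and 1, and 12 acute phase genes were higher. Without the mice with high Xist, which leaves 3 transgenic mice including DSSTG49, 0 neutrophil genes were called higher and 1 lower, and 1 acute phase gene higher, while the list medians were 1.26 and 0.76. In whole colon tissue, more cells of a type and more RNA per cell cannot be told apart.

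Other acute phase and matrix genes rose with them. Serpina3n, an acute phase serine protease inhibitor, was at 12.81, 13.01, 13.26, 12.72 and 12.92 in recipients, against 11.38, 9.64, 8.25, 9.17 and 9.35 in transgenic mice. The recipients differed little among themselves, and the difference was 3.38 ± 0.44 (SE, adjusted p = 0.00243). Lbp, the lipopolysaccharide binding protein (1.30), and C1qc, a chain of complement C1q (1.04), were also called. Gpx3, a secreted glutathione peroxidase, rose by 1.78, F13a1, the A chain of coagulation factor XIII, by 1.75, and Slpi, a secreted leukocyte protease inhibitor, by 1.34. Pappa, a protease that cleaves insulin-like growth factor binding proteins, rose by 1.71, Nrg1, a ligand of ErbB receptors, by 1.41, and Zfp600, a zinc finger gene, by 1.40. All these but Lbp and C1qc had groups that did not overlap.

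Promoters of 4 genes are shown, from among the largest rises (Saa3, Lcn2, Ngp) and falls (Cyp2c68). Each holds the pattern marked in it, so they do not stand for all large changes. Cyp2c55, the largest fall, and Serpina3n hold neither pattern and are not shown. Each runs from 250 bases before to 50 after the annotated start, from RefSeq on GRCm38.p6, 5′ to 3′ on the gene's strand. Capitals mark TTGCNNAA, a form of the site bound by C/EBP factors, in the first 3 and CAAAGTCCA, a form of the site bound by HNF4, in Cyp2c68, on either strand.
Saa3, chr7:46715627-46715926, minus strand: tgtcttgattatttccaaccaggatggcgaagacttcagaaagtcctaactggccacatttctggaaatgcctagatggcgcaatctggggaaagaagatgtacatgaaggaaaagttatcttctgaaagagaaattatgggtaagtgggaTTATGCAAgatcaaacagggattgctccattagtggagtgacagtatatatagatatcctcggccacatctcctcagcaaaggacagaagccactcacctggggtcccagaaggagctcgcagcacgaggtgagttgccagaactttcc
Lcn2, chr2:32387690-32387989, minus strand: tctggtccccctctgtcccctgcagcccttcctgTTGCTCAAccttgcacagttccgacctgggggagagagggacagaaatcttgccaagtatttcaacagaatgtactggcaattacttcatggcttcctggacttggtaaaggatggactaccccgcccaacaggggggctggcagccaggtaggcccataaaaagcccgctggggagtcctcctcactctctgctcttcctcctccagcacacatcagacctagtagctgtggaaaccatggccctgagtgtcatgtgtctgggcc
Ngp, chr9:110419558-110419857, plus strand: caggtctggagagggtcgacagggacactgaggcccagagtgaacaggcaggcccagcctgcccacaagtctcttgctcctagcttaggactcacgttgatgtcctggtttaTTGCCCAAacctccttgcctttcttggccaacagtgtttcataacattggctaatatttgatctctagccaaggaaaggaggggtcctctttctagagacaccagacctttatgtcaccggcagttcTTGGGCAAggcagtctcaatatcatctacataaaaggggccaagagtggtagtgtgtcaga
Cyp2c68, chr19:39741052-39741351, minus strand: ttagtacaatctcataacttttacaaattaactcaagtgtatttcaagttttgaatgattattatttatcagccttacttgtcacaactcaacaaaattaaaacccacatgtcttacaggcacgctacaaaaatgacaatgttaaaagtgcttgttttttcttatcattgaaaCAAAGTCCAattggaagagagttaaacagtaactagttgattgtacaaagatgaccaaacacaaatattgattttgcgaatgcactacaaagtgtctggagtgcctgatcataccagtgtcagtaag
These 2 patterns were picked after their matches were seen, from 14 patterns searched. Among the 15 largest rises, 11 had a promoter in the table, and 6 of these (Saa3, Mmp8, Lcn2, Ngp, Cxcl13 and Slpi) held TTGCNNAA, against 1 of 13 among the 15 largest falls and 10.8% of all 27025 promoters. CAAAGTCCA was in 2 of the 13 (Cyp2c68 and Hsd3b3), 0 of the 11 and 0.5% of all promoters. Over every called gene with a promoter the shares were closer to those of all promoters: TTGCNNAA was in 26 of 145 called higher (17.9%) and 68 of 903 called lower (7.5%), and CAAAGTCCA in 3 of the 903 (0.3%). A match describes these letters and not a bound site.

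Calls were made in 10.3% of cytokine, 12.9% of chemokine, 13.6% of B and plasma cell and 15.4% of macrophage and dendritic cell genes, against 6.78% of all genes. Of 29 cytokine and mediator genes, Ereg, an EGF receptor ligand (1.85), and Osm, oncostatin M (0.97), were called higher and Il18 lower. Il18, an epithelial cytokine of the interleukin-1 family, was at 8.29, 8.65, 8.70, 8.59 and 9.01 in recipients, against 9.65, 9.83, 9.23, 9.71 and 9.84 in transgenic mice, and fell by 1.00. Il1b, interleukin-1 beta, was at 8.45, 11.63, 11.61, 10.85 and 10.37 in recipients, against 11.05, 8.0, 6.46, 7.48 and 7.11 in transgenic mice, a difference of 2.56 ± 0.83 (SE) that did not pass (adjusted p = 0.0899). Of 31 chemokine genes 3 were higher and 1 lower. Cxcl13, the ligand that draws B cells through Cxcr5, was at 12.07, 12.38, 12.31, 12.62 and 12.73 in recipients, against 11.04, 9.66, 9.14, 9.32 and 10.30 in transgenic mice, and rose by 2.53 ± 0.32 (SE, adjusted p = 0.00228). Ccl11, the eosinophil chemoattractant eotaxin, rose by 1.13 and Ccl9 by 0.82, and Ccl6 fell by 0.69.

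Igha, the constant region of the IgA heavy chain, was at 10.27, 11.88, 12.29, 11.10 and 11.74 in recipients, against 10.12, 8.44, 9.29, 9.72 and 9.13 in transgenic mice. The groups did not overlap and the difference was 2.11 ± 0.39 (SE, adjusted p = 0.00905). Pou2af1, a transcriptional coactivator of B cells, rose by 1.28, while Pigr, the epithelial receptor that carries IgA into the lumen, fell by 0.57. These were the 3 calls among 22 B cell and plasma cell genes. Of 26 macrophage and dendritic cell genes 4 were higher and 0 lower. Chil3, a chitinase-like protein of myeloid cells, was at 6.36, 7.98, 8.98, 8.55 and 7.36 in recipients and between 4.70 and 4.81 in transgenic mice, and rose by 3.11. All 5 transgenic mice were below the 4.82 that Xist read at its lowest among these 10 arrays, so 3.11 may understate the change. Itgam, an integrin of myeloid cells (1.58), Mrc1, the mannose receptor (0.94), and Cd163, a haemoglobin scavenger receptor (0.76), were the others.

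Of 21 T cell, 21 intraepithelial lymphocyte and NK cell and 13 MHC class II presentation genes, 0 were called, against 6.78% of all genes. With array weights 5, 6 and 1 were called higher. The smallest p-values among the T cell and the NK lists belonged to Ctla4 (0.47, adjusted p = 0.104) and Gzma, granzyme A (0.55, adjusted p = 0.0550). Of 25 interferon-stimulated genes 3 fell, Rsad2 by 0.75, Oasl1 by 0.80 and Oas1a by 0.52, and 0 rose. Oasl1 was at 7.57 to 8.28 in recipients, against 8.46 to 8.90 in transgenic mice. Of 23 innate receptor signalling genes only Pycard, the inflammasome adaptor, was called, and fell by 0.55. Of 16 mast cell and eosinophil genes only Kit was called, and fell by 0.93. Calls were made in 12.0% of interferon-stimulated, 4.3% of innate receptor and 6.25% of mast cell and eosinophil genes, against 6.78% of all genes. Kit also marks interstitial cells of the gut wall.

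Genes of the differentiated colonic epithelium fell in recipients. Of 32 colonocyte and ion transport genes 12 were called lower and 0 higher, with a median difference of -0.55, against 5.76% of all genes called lower. Aqp8, a water channel of surface colonocytes, was at 9.39, 10.19, 9.05, 8.45 and 9.61 in recipients, against 10.69, 11.95, 12.04, 11.46 and 11.75 in transgenic mice. It fell by 2.24 ± 0.32 (SE, adjusted p = 0.00367) with no overlap. Slc4a4, a sodium bicarbonate cotransporter, fell by 1.36 and Slc6a14, an amino acid transporter, by 1.35. Slc26a3, the chloride-bicarbonate exchanger of the surface epithelium, was at 10.54 to 11.55 in recipients and 11.19 to 11.69 in transgenic mice, a difference of -0.39 that was not called (adjusted p = 0.256). Without the mice with high Xist, which leaves 3 transgenic mice, 7 colonocyte, 7 goblet cell, 7 xenobiotic, 4 junction and 2 smooth muscle genes were called lower, with list medians of -0.57, -0.64, -0.25, -0.54 and -0.56.

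Butyrate, a product of bacterial fermentation, is the main fuel of colonocytes. Slc16a1, a monocarboxylate transporter, was at 9.51, 9.98, 9.84, 9.38 and 9.84 in recipients, against 10.70, 10.82, 10.81, 10.79 and 10.77 in transgenic mice. It fell by 1.07 ± 0.12 (SE, adjusted p = 0.00139), and the transgenic mice were nearly identical to one another. Slc5a8, a sodium-coupled transporter of short-chain fatty acids, was at 11.21, 11.06, 10.73, 11.07 and 11.71 in recipients, against 12.21, 12.51, 12.31, 12.40 and 12.62 in transgenic mice, and fell by 1.25. Acss1 and Acss2, which make acetyl-CoA from acetate, fell by 0.86 and 0.90. Of 13 genes of short-chain fatty acid sensing and butyrate transport, 6 were lower and 0 higher. Of 22 genes of fatty acid oxidation and ketogenesis, 7 were lower and 1 higher, with a median of -0.51. Over all genes 5.76% were called lower and 1.02% higher. Acadm, the medium-chain acyl-CoA dehydrogenase, fell by 0.80, Ehhadh, a peroxisomal enzyme, by 0.94 and Acaa2, a mitochondrial thiolase, by 0.83, while Angptl4, an inhibitor of lipoprotein lipase, rose by 0.91.

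The enzymes of xenobiotic metabolism held the largest fall of all. Cyp2c55, a cytochrome P450 that oxidises fatty acids and drugs, was at 7.42, 7.48, 5.86, 5.32 and 5.37 in recipients, against 10.21, 11.15, 11.45, 11.13 and 11.93 in transgenic mice. It fell by 4.88 ± 0.47 (SE, adjusted p = 0.00122), a 29.5-fold difference. The untreated transgenic mice averaged 12.21 and the DSS-treated axenic controls 6.53. Cyp2c68, whose promoter is printed above, was at 6.13, 6.15, 5.62, 5.29 and 5.93 in recipients, against 7.69, 7.97, 7.63, 7.87 and 8.73 in transgenic mice, and fell by 2.15. Cyp2f2 fell by 1.83, Cyp2s1 by 1.46 and Nr1i2, the pregnane X receptor, by 1.02. Of 40 genes of xenobiotic and bile acid metabolism 15 were lower and 1 higher, against 5.76% of all genes lower and 1.02% higher. The exception, Cyp3a13, was at 8.34, 8.86, 8.03, 7.44 and 8.71 in recipients, against 7.76, 6.62, 6.29, 6.25 and 7.34 in transgenic mice, and rose by 1.42, with overlapping groups. Probe sets of such multigene families can bind related transcripts, which was not tested.

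**Figure D2:**
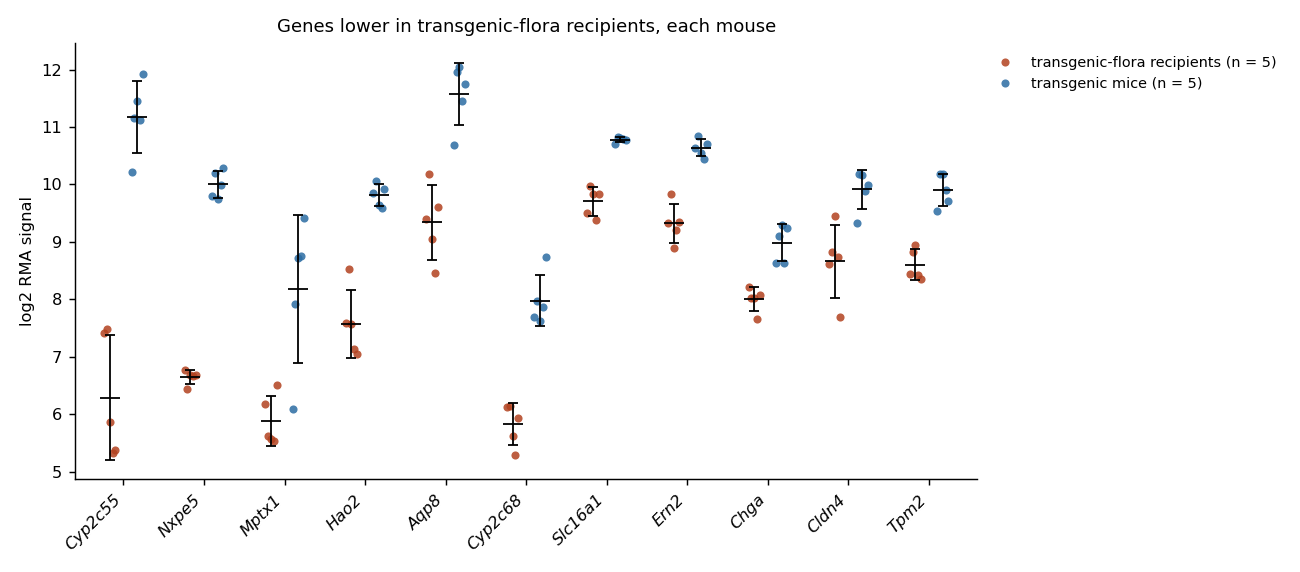
Log2 RMA signal (vertical axis) of 11 genes called lower, with 1 point per mouse, transgenic-flora recipients left and transgenic mice right of each gene; bars are the mean and SD (n = 5 each). Nxpe5 lies between 6.44 and 6.77 in recipients and between 9.75 and 10.28 in transgenic mice.

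Other large falls joined metabolic and surface genes. Hao2, a peroxisomal hydroxyacid oxidase, was at 7.58, 8.52, 7.57, 7.14 and 7.04 in recipients, against 9.85, 10.06, 9.64, 9.59 and 9.92 in transgenic mice, and fell by 2.24. Acer1, an alkaline ceramidase, fell by 1.86, Ano1, a calcium-activated chloride channel, by 1.75, and Scin, an actin-severing protein, by 1.71. Ccn3, a secreted matrix-associated protein, fell by 2.08, Eno3, an enolase of glycolysis, by 1.93, and Rapgefl1, named for its likeness to Rap exchange factors, by 1.67. Hsd3b3, a steroid dehydrogenase, fell by 1.65, Tgm3, a transglutaminase, by 1.62, and Gsdmc4, a gasdermin, by 1.61. Mptx1, a mucosal pentraxin, was at 6.18, 5.62, 5.56, 5.54 and 6.51 in recipients, against 6.09, 7.92, 8.72, 8.76 and 9.41 in transgenic mice, and averaged 11.65 in untreated transgenic mice. It fell by 2.30 (adjusted p = 0.0218), although mouse DSSTG49 lay among the recipients.

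Some genes of secretory cells fell. Of 27 goblet cell and mucus genes 11 were lower and 0 higher, with a median of -0.56. Calls were made in 40.7% of them and in 27.3% of enteroendocrine and tuft cell genes, against 6.78% of all genes. Ern2, the IRE1 beta sensor of goblet cells, was at 9.33, 9.83, 8.90, 9.20 and 9.35 in recipients, against 10.64, 10.84, 10.55, 10.45 and 10.71 in transgenic mice, and fell by 1.31. Atoh1, the transcription factor of the secretory lineage, fell by 1.12, Bcas1 by 1.34 and Capn9, a calpain of the digestive tract, by 1.06. Muc2, the main secreted mucin, was at 13.22 to 13.86 in recipients and 13.83 to 14.02 in transgenic mice, a difference of -0.39 that was not called (adjusted p = 0.0710). Of 22 enteroendocrine and tuft cell genes 6 were lower and 0 higher, but the list median was -0.04 and 10 of the 22 differences were positive. Chga, chromogranin A, was at 8.22, 8.03, 8.03, 7.65 and 8.07 in recipients, against 8.64, 9.11, 9.30, 8.64 and 9.25 in transgenic mice, and fell by 0.99. Tph1, which makes serotonin, fell by 0.97, Chgb by 0.96 and Gcg, the glucagon precursor, by 1.08.

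Junction genes fell in 11 of 22 members measured and rose in 1, with a median of -0.52. Ocln, occludin, was at 8.24, 8.66, 8.26, 7.97 and 8.68 in recipients, against 9.23, 9.09, 9.15, 9.37 and 9.42 in transgenic mice, and fell by 0.89. Cldn15, a channel-forming claudin, fell by 1.24, Cldn23 by 0.58 and Cgn, cingulin, by 0.59. Cldn1, a sealing claudin, was the member that rose, by 0.73, at 5.98 to 7.04 in recipients and 5.46 to 5.92 in transgenic mice. Of 21 crypt stem and Wnt target genes 4 fell and 0 rose. These were Ephb3, an ephrin receptor of the crypt (-0.55), Slc12a2, a chloride cotransporter (-0.64), Lrig1, a brake on EGF receptors (-0.70), and Znrf3, a brake on Wnt receptors (-0.32). Lgr5, the crypt base stem cell receptor, differed by -0.59 and was not called (adjusted p = 0.0808). Of 23 genes of wounded and regenerating epithelium, Ereg rose and Cldn4 and Krt7 fell. Plet1 differed by 0.05 (adjusted p = 0.959) and Clca4b by 1.24 (adjusted p = 0.106). Of 27 cell cycle genes 0 were called, against 6.78% of all genes, and the smallest p belonged to Rrm2 (0.71, adjusted p = 0.0685). That 0 depended on the processing and on the mice kept. With the within-array SD as a covariate 15 were called higher, with array weights 7 and after quantile normalization 3. Without AXDSSTG922 and DSSTG49 the count was 9.

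Of 29 antimicrobial lectins and bactericidal proteins 5 were higher and 2 lower, with a median of 0.27. Calls were made in 24.1% of them and in 15.4% of oxidant and antioxidant genes, against 6.78% of all genes. Reg3b and Reg3g, antibacterial lectins of the Reg3 family, varied too widely within groups for a call. Reg3b was at 8.53, 11.51, 6.36, 10.68 and 9.94 in recipients, against 10.97, 7.31, 5.62, 5.86 and 5.72 in transgenic mice, a difference of 2.31 ± 1.14 (SE, adjusted p = 0.256). Reg3g differed by 1.16 ± 1.33 (SE, adjusted p = 0.637). In both genes recipient AXDSSTG713 was the lowest of its group and transgenic mouse DSSTG49 the highest of its own. Retnlb, a goblet cell protein with bactericidal action, differed by 0.75 (adjusted p = 0.539). Epithelial oxidant enzymes were likewise not called, with differences of 0.91 for Nos2, -0.24 for Duox2 and -1.08 for Nox1. Of 26 oxidant and antioxidant genes, Gpx3, Sod3, an extracellular superoxide dismutase (0.97), and Ncf1, a subunit of the phagocyte oxidase (0.68), rose, and Nqo1, a quinone reductase, fell by 1.47.

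The stroma split. Of 21 smooth muscle genes 10 were lower and 0 higher, with a median of -0.57. Tpm2, a tropomyosin, was at 8.44, 8.83, 8.95, 8.43 and 8.35 in recipients, against 9.54, 10.18, 10.18, 9.91 and 9.72 in transgenic mice, and fell by 1.30. Tpm1 fell by 1.09, Myh11, smooth muscle myosin, by 1.1, and Smtn, smoothelin, by 0.57. Of 26 collagen and matrix genes, Dcn, decorin (0.94), Timp1, a metalloproteinase inhibitor (1.99), and Col18a1 (0.52) rose and 0 fell. The calls of Timp1 and Col18a1 were each lost in 14 of the alternative settings. Besides Mmp8, the proteases Adamts1 (1.21), Mmp19 (1.32) and Adamts4 (0.68) were called higher among 20 metalloproteinase genes. Among endothelial genes Vcam1, an adhesion receptor for leukocytes, rose by 1.32 and Lyve1, a lymphatic hyaluronan receptor, by 0.99. Of 21 enteric neuron and glia genes Ednrb, an endothelin receptor, was the 1 call, at 0.93, a share of 4.8% against 6.78% of all genes.

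Levels of tissue marker lists moved with these results. The mean level of the smooth muscle list was 8.90 to 9.71 in recipients, against 9.78 to 10.10 in transgenic mice, and that of the 13 posterior Hox genes was 6.20 to 6.60, against 6.63 to 6.72. Neither pair of ranges overlapped. With the smooth muscle level as a covariate 11 genes were called, and with the posterior Hox level 1 gene. The list medians in these fits were 2.70 and 1.65 for neutrophil and 1.08 and 0.70 for acute phase genes. They were -0.43 and -0.53 for colonocyte and -0.64 and -0.60 for goblet cell genes. Some other medians shrank or changed sign. With the smooth muscle level they were -0.134 for pancreatic, 0.189 for sterol synthesis and -0.223 for fatty acid oxidation genes, against 1.487, -0.372 and -0.513 without it. With the posterior Hox level they were -0.006 for B and plasma cell, -0.371 for MHC class II and 0.139 for chemokine genes, against 0.355, 0.204 and 0.442. The median standard error over all genes was 0.219 and 0.201, against 0.137 without a covariate. The part of tissue composition in the results was not tested. Hoxb13, expressed toward the distal end of the gut, was at 9.30, 8.63, 9.30, 8.33 and 9.67 in recipients, against 9.72, 10.24, 10.10, 10.17 and 10.29 in transgenic mice, and fell by 1.06. Hoxa9 fell by 0.86, and of the more anterior genes Hoxa5 fell by 0.99, Hoxa7 by 0.47 and Hoxa3 by 0.33. Hoxb13 and Hoxa9 were the 2 calls among the 13 posterior Hox genes. The median difference of that list was -0.09, with 6 positive and 7 negative differences. Hoxa5, Hoxa7 and Hoxa3 were the 3 calls among 20 proximal colon Hox and position genes. The median of this second list was -0.02, with 8 positive and 12 negative differences. Hoxd13 was not called (0.31, adjusted p = 0.529). The labels do not say which length of colon was taken, and its part in the results was not tested.

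Pancreatic acinar genes marked 3 of the 5 recipients. The mean level of the pancreatic list over 16 genes was 9.26, 6.87, 7.01, 9.12 and 9.95 in recipients, against 6.87 to 7.42 in transgenic mice. High levels were not particular to these recipients. The level reached 11.1 in wild-type-flora recipients, 11.2 in untreated transgenic mice and 11.5 in untreated wild-type mice. It reached 8.9 in wild-type mice under DSS and 8.8 in axenic controls. The list's median difference was 1.49 in the transgenic pair and 3.27 in the wild-type pair. In the main test 0 of the 16 were called, while with array weights 12 were called higher and 2 lower. Cpb1, pancreatic carboxypeptidase B, was at 9.38, 5.80, 6.16, 10.13 and 11.17 in recipients and 5.55 to 5.91 in transgenic mice (adjusted p = 0.0899). The mouse Reg3a probe set moved in the same recipients, at 6.19, 5.06, 5.19, 8.27 and 8.11, against 4.89 to 5.15 in transgenic mice, and was not called (1.52, adjusted p = 0.148). With the pancreatic level as a covariate 501 genes were called, 38.5% of them higher. Of 20 small intestinal enterocyte genes only Fabp2, a fatty acid binding protein, was called, and fell by 1.87, a share of 5.0% against 6.78% of all genes. Of 13 adipocyte genes Fabp4 rose by 1.09 and Pck1, an enzyme of glucose and glycerol synthesis that the colon also expresses, fell by 1.59.

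**Figure D3:**
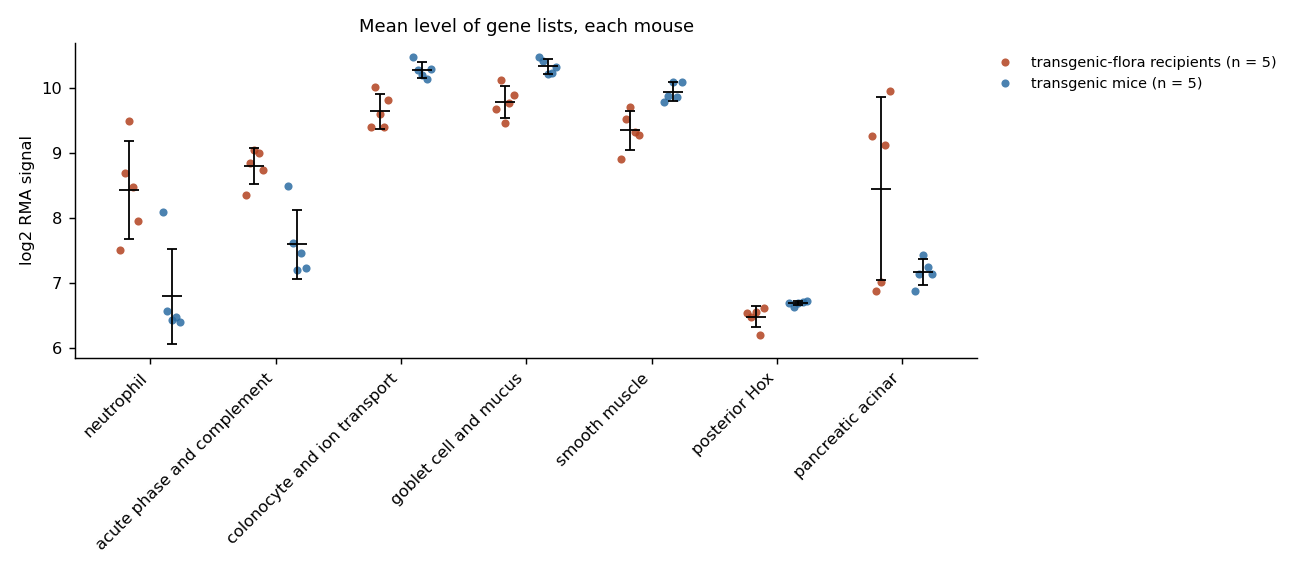
Mean log2 RMA signal (vertical axis) of 7 gene lists, with 1 point per mouse, transgenic-flora recipients left and transgenic mice right; bars are the mean and SD (n = 5 each). The pancreatic acinar level is 9.12 or more in 3 recipients and 7.01 or less in the other 2.

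Clock, lipid and mitochondrial genes gave smaller groups of calls, to be read against 6.78% of all genes called. Calls were made in 35.3% of clock, 18.8% of fatty acid synthesis, 18.2% of nutrient and iron and 12.0% of respiratory chain genes. The shares of 5.9% for sterol synthesis and 5.0% for hypoxia and glycolysis lay near that of all genes. Of 17 clock genes 5 were lower and 1 higher. Nr1d1, the repressor Rev-erb alpha, was at 9.04, 9.35, 9.10, 8.28 and 8.97 in recipients, against 9.68, 10.48, 10.35, 10.25 and 10.61 in transgenic mice, and fell by 1.32. Per3 fell by 0.79, Nr1d2 by 0.85 and Dbp, a clock output factor, by 0.83, while Per1, which glucocorticoids also induce, rose by 0.66 and Per2 differed by 0.02. The labels give no hour of tissue collection, and its part was not tested. Of 17 sterol synthesis genes only Dhcr7 was called, and fell by 0.67. Of 16 genes of fatty acid synthesis and lipid droplets Acly, Plin2 and Srebf1 fell, by 0.61, 0.46 and 0.41. These 3 calls depended on processing: 0 of the 16 were called with another variance model. After quantile normalization 1 was called higher and 0 lower. Of 25 respiratory chain genes Ndufa1, Cox4i1 and Atp5c1 fell, by 0.95, 0.69 and 0.50. Of 20 hypoxia and glycolysis genes only Ndrg1 was called, and fell by 0.53, and of 22 nutrient and iron genes 4 fell, among them Mep1a, a brush border protease, by 1.15 and Amn, amnionless, by 0.66. Of 23 endoplasmic reticulum stress and 16 heat shock genes, and of 5 sex-linked genes, 0 were called. With the within-array SD as a covariate 8 endoplasmic reticulum stress and 6 heat shock genes were called higher, and without AXDSSTG922 and DSSTG49 the counts were 7 and 6.

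**Figure D4:**
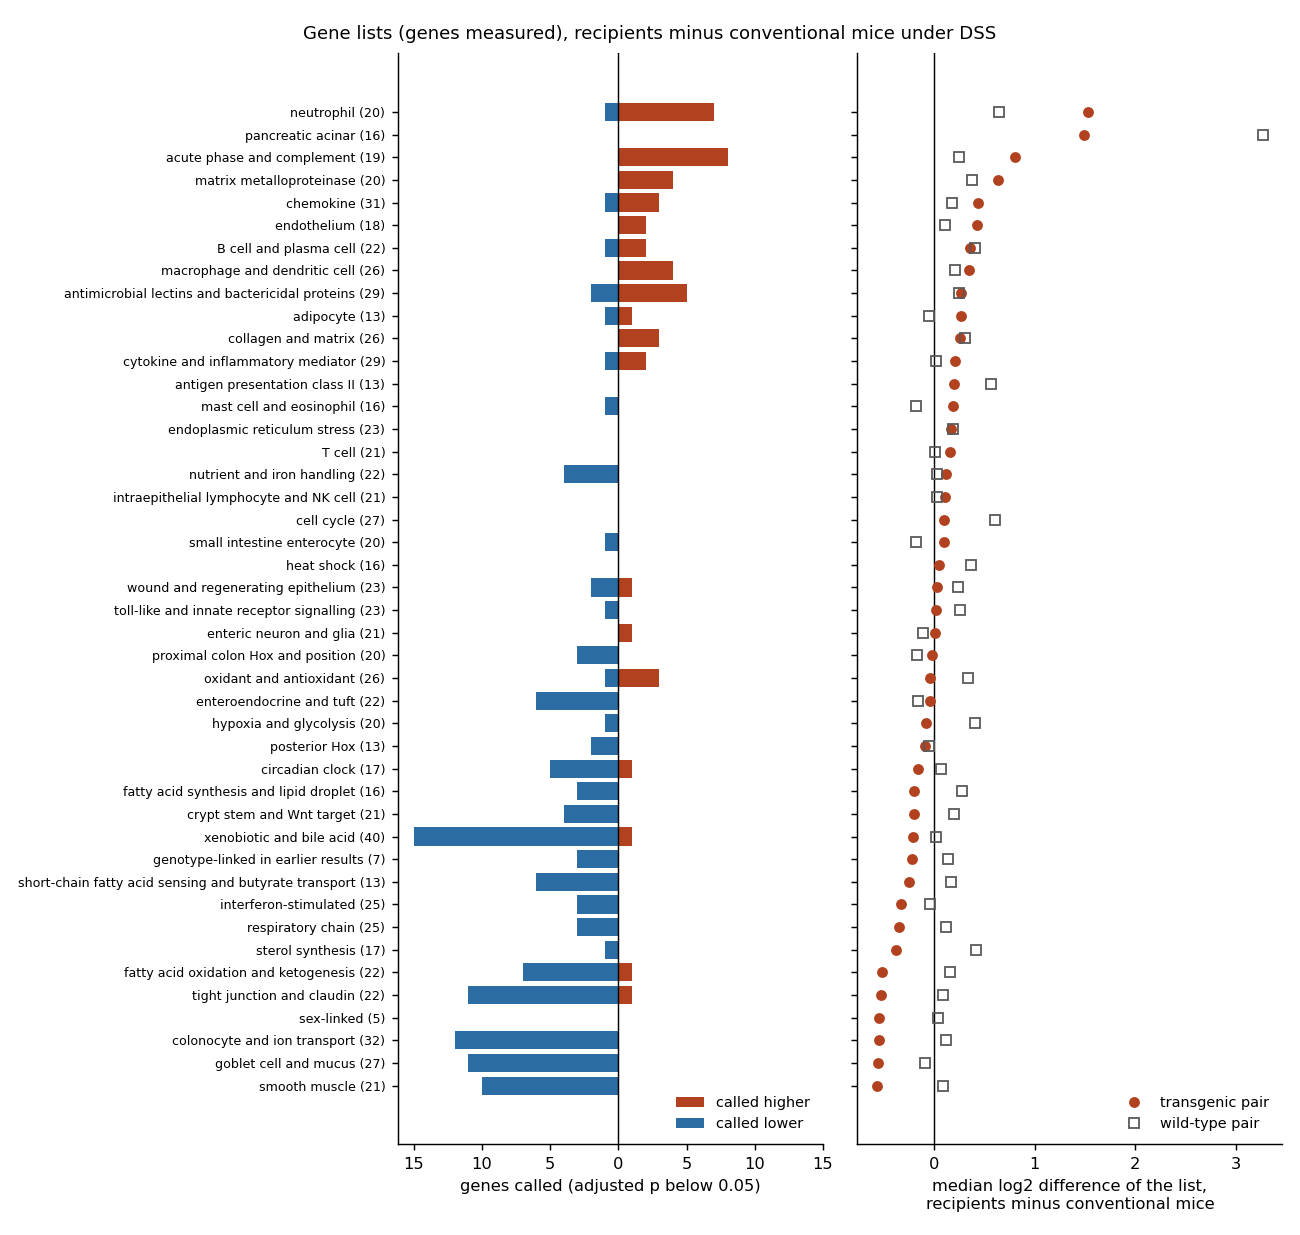
Left, the number of genes called higher (right of 0) and lower (left of 0) in transgenic-flora recipients minus transgenic mice for each list, with the number measured in brackets; right, the median log2 difference of the list in the transgenic pair (points) and the wild-type pair (squares). The smooth muscle, goblet cell and colonocyte lists have medians of -0.57, -0.56 and -0.55 in the transgenic pair.

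A group of 7 genes that earlier results of these data tied to genotype was examined on its own, since it bears on the host. Of the 7, 3 were called lower, 0 higher and 4 not at all, and 3 of the 7 differences were positive. The 3 called are described here. Nxpe5, a member of the neurexophilin and PC-esterase family, was at 6.77, 6.44, 6.69, 6.66 and 6.68 in recipients, against 9.79, 10.20, 9.75, 9.99 and 10.28 in transgenic mice. It fell by 3.35 ± 0.12 (SE, adjusted p = 1.48e-07), and the mice of each group lay close together. Means in the other groups were 6.44 in wild-type-flora recipients, 6.49 in axenic controls and 6.30 in wild-type mice under DSS, and 9.76 and 5.89 in untreated transgenic and wild-type mice. For this gene the recipients lay near the wild-type and axenic groups. Transgene and a difference in line or substrain cannot be told apart. Entpd4, a nucleoside diphosphatase, fell by 0.84. Nnt, the mitochondrial transhydrogenase, which is disrupted in some C57BL/6 substrains, was at 6.68, 7.01, 6.96, 7.04 and 7.04 in recipients, against 7.39, 7.29, 7.46, 7.34 and 7.28 in transgenic mice. It fell by 0.41, and averaged 8.24 in wild-type mice under DSS and 8.65 in untreated wild-type mice.

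Whether these differences were particular to the transgenic pair was tested against the wild-type pair. Wild-type-flora recipients against wild-type mice gave 0 calls with limma (0.0% of 19908 genes), with 1634 genes at an unadjusted p below 0.05 and a smallest adjusted p of 0.285. Array weights gave 1176 calls and a model of all 35 arrays 16. Of the 1350 genes called in the transgenic pair, 548 (40.6%) had the same sign in the wild-type pair, made up of 394 lower and 154 higher ones. The genes called lower had a median of -0.66 in the transgenic pair and 0.07 in the wild-type pair, and those called higher 0.73 and 0.20. Over all genes the differences of the pairs, which share no array, correlated at r = 0.0065, a description across genes that are not independent.

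**Figure D5:**
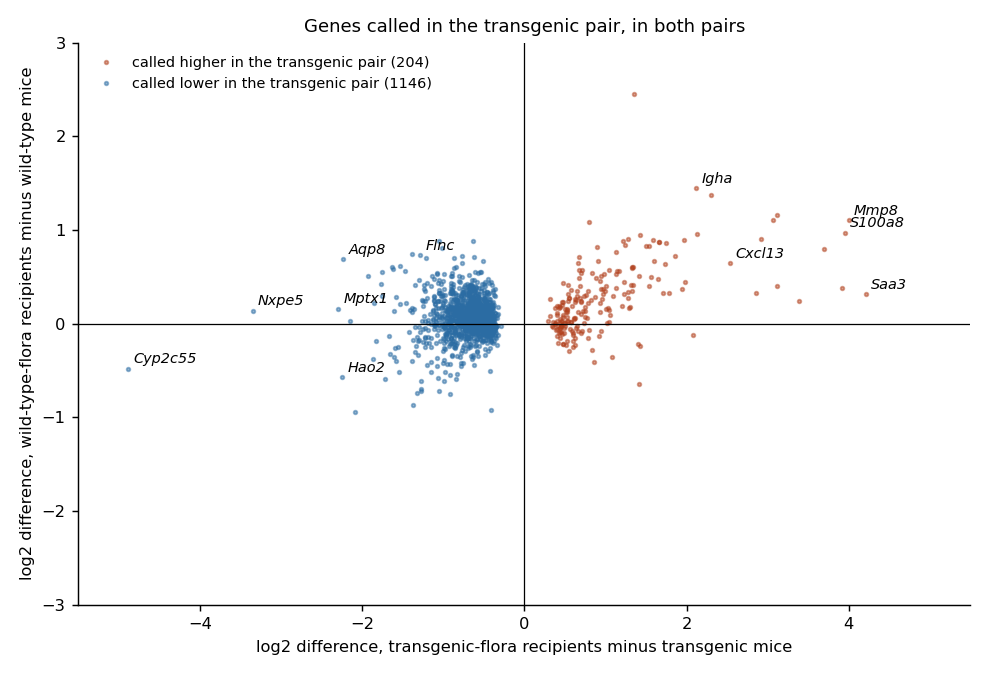
Log2 difference in the transgenic pair (horizontal axis) and in the wild-type pair (vertical axis) for the 1350 genes called in the transgenic pair, 1 point per gene. The 1146 genes called lower have a median of 0.07 on the vertical axis, and the 204 called higher 0.20.

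A direct test of the difference between the pairs called 15 genes (0.0753%), all lower in the transgenic pair relative to the wild-type pair, and 12 of them were called in the transgenic pair too. The largest was Nxpe5, with a difference between the pairs of -3.49 (adjusted p = 6.44e-08). Flnc, filamin C of muscle, was at 7.58, 8.14, 8.43, 8.22 and 7.64 in recipients, against 8.68, 9.03, 9.57, 9.14 and 10.02 in transgenic mice. Its difference was -1.29 in the transgenic and 0.73 in the wild-type pair, so -2.02 between them (adjusted p = 0.0110). Gstm3, a glutathione transferase, had -1.21 and 0.71, and Tst, the sulfur transferase rhodanese, -1.01 and 0.81. Kcnn4, a potassium channel of the epithelium, was not called within the transgenic pair (-0.39) but differed between the pairs by -1.23, as its wild-type difference was 0.84. Hid1, Pxylp1, Emp2, Gstt3 and Fbxo36 followed with differences between the pairs of -1.45, -1.31, -1.24, -1.18 and -1.15. Among the genes described above, the difference between the pairs did not pass for Saa3 (3.89, adjusted p = 0.101), Serpina3n (3.15, adjusted p = 0.0583), Cyp2c55 (-4.40, adjusted p = 0.0934), Aqp8 (-2.93, adjusted p = 0.0799) or Slc16a1 (-1.31, adjusted p = 0.0570). Saa3 averaged 12.00 in transgenic-flora recipients and 7.79 in transgenic mice, and 11.17 in wild-type-flora recipients and 10.85 in wild-type mice.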

How the data were processed

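Colon RNA (200 ng) was hybridised to Affymetrix Mouse Gene 1.0 ST arrays, 1 array per mouse. The deposited values are log2 signals made by the authors with RMA in Affymetrix Expression Console 1.1, per the submitters' processing notes. Scanner files were not used here, and array number limits the precision. Of 28090 probe sets, 21639 have 1 gene symbol in the platform annotation, 1539 several and 4912 none listed. The probe set with the highest mean over all 35 arrays stood for each of 19908 genes, with no filter on low signal. limma 3.58.1 in R 4.3.3 compared the 10 arrays, and the 20 arrays of both pairs for the difference between pairs, with Benjamini-Hochberg adjustment over all genes and a threshold of 0.05. On simulated data with 200 changed genes of 19908, the transgenic comparison called 46.3%, 77.6% and 100% of those changed 1.5-, 2- and 4-fold. Named genes are the 15 largest rises and falls among called genes whose groups do not overlap, up to 4 members per list by smallest p, up to 10 genes called between the pairs and a set of fixed genes. Of 980 genes on 44 lists, 890 were measured. The members, lists and fixed genes were chosen with earlier results of these data known. Promoters came from RefSeq (GRCm38.p6). Alternatives covered the variance model, array weights, normalization, probe sets, low signal, covariates and left-out mice.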

Additional observations from a re-analysis of the deposited data

Results flagged for a closer look

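In groups of 5 mice, a value counted as standing apart where its gap to the nearest other mouse exceeded 0.71 of the group's range. Chance alone marks about 1 in 20 groups. Of 342 groups examined (171 genes in 2 groups), 30 were marked, 18 of them for transgenic mouse DSSTG49 and 5 for recipient AXDSSTG922. Mouse DSSTG49 was the highest transgenic mouse in each case. It stood at 10.75 for Saa3, 11.35 for Lcn2, 7.14 for Mmp8, 5.73 for Ngp, 9.57 for S100a8 and 9.5 for S100a9. It stood at 9.3 for Retnlg, 4.81 for Chil3, 7.62 for Il1r2, 8.62 for Ereg, 6.11 for Osm and 8.64 for C1qc. It stood at 7.26 for Mrc1, 8.16 for Itgam, 9.81 for Socs3, 8.95 for Timp1, 7.7 for Adamts1 and 7.34 for Mmp19. The set holds neutrophil, acute phase, macrophage and matrix genes, the cytokine and mediator genes Ereg and Osm, and Socs3, an inhibitor of cytokine signalling. The reason was not tested.

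Recipient AXDSSTG922 was the lowest recipient for Rrm2 (7.49), Hmgcs1 (8.78), Nos2 (8.73), Nnt (6.68) and the highest for Amn (7.44). Recipient AXDSSTG749 was the highest of its group for Hsd3b3, at 9.43. Recipient AXDSSTG713 was the lowest of its group for Lgr5, at 5.77. Recipient AXDSSTG446 was the lowest of its group for Hoxa7, at 6.97. Transgenic mouse DSSTG47 was the lowest of its group for Nox1, at 9.38. Transgenic mouse DSSTG44 was the lowest of its group for Per2 (7.51), Ndufa1 (7.8), Cox4i1 (10.09).

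The test of the difference between the transgenic and the wild-type pairs passed for 15 genes, all negative. On the log2 scale it was -3.49 for Nxpe5, -1.1 for Ephb3, -2.02 for Flnc, -1.92 for Gstm3, -1.82 for Tst, -1.45 for Hid1, -1.31 for Pxylp1, -1.24 for Emp2. It was also -1.23 for Kcnn4, -1.18 for Gstt3, -1.15 for Fbxo36, -1.06 for Kcnq1, -1.07 for Gadd45g, -0.97 for Farp1, -0.79 for Baiap2l2.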

How the results depend on the processing

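The main comparison called 1350 genes. It called 4478 with array weights, 3294 with the within-array SD as a covariate, 11 with the smooth muscle level, 1 with the posterior Hox level and 846 with the Xist level as covariates, and 455 without the mice with Xist above 8. Chosen after seeing the data, leaving out recipient AXDSSTG922 and transgenic mouse DSSTG49 gave 2466 and a pancreatic covariate 501. Leaving out 1 mouse at a time gave 620 (without transgenic mouse DSSTG48) to 1961 (without recipient AXDSSTG749). The total also moved by over 1.5 times without DSSTG46 (884), AXDSSTG713 (821) and AXDSSTG632 (722). Of the 137 named genes called, 0 reversed under any setting. With array weights 137 held, 110 after quantile normalization, 60 without the mice with high Xist and 2 with the smooth muscle covariate. Among named genes not called, 21 were called with array weights and 11 without AXDSSTG922 and DSSTG49. Over the alternative settings the limma adjusted p ranged from 0.000192 to 0.555 for Il1b and 0.00574 to 0.409 for Muc2. The range was 0.0128 to 0.796 for Nos2 and 0.0338 to 0.928 for Reg3b. The calls lost most often were those of Ccl9, Fabp2, Plin2 and Srebf1, each in 15 settings. Cldn1, Col18a1, Krt7, Mep1a and Timp1 lost theirs in 14. Acly, Gcg, Hoxa3, Ncf1, Per1 and Znrf3 lost theirs in 13. Total counts of the other settings stayed within 1.5 times.

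The 15 calls between the pairs became 2800 with array weights, 579 with all 35 arrays, 25 with all probe sets, 128 above the 40th percentile of signal, 25 with the within-array SD, 1 with the smooth muscle and 1 with the posterior Hox covariate, 1224 without high-Xist mice and 969 with the pancreatic covariate. Leaving out 1 mouse gave 9 to 1011, 1011 being without wild-type mouse DSSWT52. It was 491 without AXDSSTG749, 156 without AXDSSWT793, 109 without AXDSSWT639, 61 without DSSWT53, 32 without DSSWT55 and 9 without any 1 of DSSWT56, AXDSSWT597, AXDSSWT098, AXDSSTG632 and AXDSSTG446. The wild-type pair's 0 calls became 1176 with array weights, 16 with all 35 arrays, 1 after quantile normalization, 1 with the within-array SD and 0 to 21 leaving out 1 mouse (21 without recipient AXDSSWT880). The cause of these shifts was not tested. No paired analysis was possible because the groups share no mouse numbers.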
